A study of Homo sapiens with 15 samples.

Results

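The genes described here encode the protein translocon of the endoplasmic reticulum (ER) and its accessory TRAP complex. They are the channel subunits SEC61A1, SEC61B and SEC61G, the auxiliary membrane proteins SEC62 and SEC63, the TRAP subunits SSR1, SSR2, SSR3 and SSR4, and the translocating-chain protein TRAM1. Members were matched by gene symbol, and all 10 were found among the 13243 genes of the deposited count table. All 10 also passed the filter on low counts, which removed 0 genes of the table.

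The transcriptomes are RNA-seq libraries of HEK293T cells, a human embryonic kidney line that carries the SV40 large T antigen. Every group was the same line, grown in DMEM with serum at 37 °C and treated for 4 h; the groups received DMSO (the vehicle), IXA1, IXA4, IXA6 or thapsigargin (Tg). In the series' own terms the IXA compounds activate IRE1/XBP1s signalling and Tg, an inhibitor of the ER calcium pump, activates the whole unfolded protein response (UPR). Of 15 samples, 14 libraries could be matched to a count column, 2 for IXA1 and 3 for each other group. No dose is stated in the labels, so the compounds share a time point but not a known dose. Per the labels the experiments were independent, on this single line, and p-values measure the spread between those cultures.

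Most secretory and membrane proteins enter the ER through the SEC61 channel, either while they are being translated on bound ribosomes or, for some short precursors, afterwards with the help of SEC62 and SEC63. The TRAP complex sits beside the channel at the ribosome and assists precursors whose signal sequences open it poorly, and TRAM1 contacts signal sequences as they enter the membrane. Many genes of this machinery are known targets of XBP1s, the transcription factor made after IRE1 splices XBP1 mRNA, and some also respond to ATF6. The UPR element, with its ACGTG core, is a known binding element of XBP1s.

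The promoter windows are shown because the study's compounds are described by an action on XBP1s. RefSeq start sites (GRCh38.p14) were matched by symbol for 9 of the 10 genes, which have 13 start sites; TRAM1 was not examined. In each case the 250 bases before the start were searched on both strands. The unfolded protein response element (UPRE) TGACGTGG was found in 3 of the 13 windows, and in 0.612% of 35116 windows of all genes. Those 3 windows belonged to SEC62, to the third of 3 starts of SSR3 and to the second of 2 starts of SSR4. Both the SSR3 and the SSR4 site lie downstream of the first start of their gene, and the windows of the earlier starts held no UPRE. Which starts are used in these cells was not tested. The element lay 17 to 10 bases before the SEC62 start (positions -17 to -10), at -41 to -34 for SSR3 and at -129 to -122 for SSR4, each time on the strand opposite to the gene, so that it reads CCACGTCA below.
SEC62 promoter window, chr3:169966557-169966806, plus strand, UPRE and further ACGTG core in capitals: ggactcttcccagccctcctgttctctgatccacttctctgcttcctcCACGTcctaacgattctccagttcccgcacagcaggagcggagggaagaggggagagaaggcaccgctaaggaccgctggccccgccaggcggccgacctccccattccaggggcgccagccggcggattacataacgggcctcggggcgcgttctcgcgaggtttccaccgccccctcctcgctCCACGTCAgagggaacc
SSR3 site, chr3:156554148-156554177, minus strand, UPRE in capitals: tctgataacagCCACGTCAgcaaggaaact
SSR4 site, chrX:153794528-153794557, plus strand, UPRE in capitals: tcagggaggggCCACGTCAgtgctgccaga

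The ACGTG core alone, which TGACGTGG contains, was in 9 of the 13 windows, covering 6 genes (SEC61G, SEC62, SEC63, SSR1, SSR3 and SSR4), against 18.5% of all windows. SSR1 held the core at 3 places, at -136 to -131 as the palindrome CACGTG, at -86 to -82 and at -30 to -26. SEC61B held none; its window is shown because it lies in the 339-base gap that SEC61B shares with its divergent neighbour ALG2. The longer ER stress elements ERSE and ERSE-II were in 0 of the 13 windows and in 0.074% and 0.0513% of all windows. CCAAT was in 7 of the 13 windows and in 32.0% of all. A match describes the letters of these windows and is not a measured binding site.
SSR1 promoter window, chr6:7313200-7313449, minus strand, ACGTG core in capitals on either strand: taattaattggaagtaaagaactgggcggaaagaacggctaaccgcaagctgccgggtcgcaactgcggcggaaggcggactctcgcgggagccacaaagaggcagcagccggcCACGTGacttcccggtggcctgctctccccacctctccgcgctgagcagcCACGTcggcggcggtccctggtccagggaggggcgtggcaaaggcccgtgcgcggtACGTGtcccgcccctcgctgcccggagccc
SEC61B promoter window, chr9:99222032-99222281, plus strand, no core and no capitals: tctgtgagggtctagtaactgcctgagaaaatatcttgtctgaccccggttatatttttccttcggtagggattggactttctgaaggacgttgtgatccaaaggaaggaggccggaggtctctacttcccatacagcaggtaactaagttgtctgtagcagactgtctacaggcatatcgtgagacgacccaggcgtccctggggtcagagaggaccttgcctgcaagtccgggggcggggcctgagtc

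The 14 libraries held 14160321 to 15726742 counts each, replicate libraries correlated at 0.990 to 0.993 across genes on the log2 CPM scale, and the biological coefficient of variation was 5.66%. All 8 markers listed for HEK293 cells were in the table, with summed levels of 854 to 946 CPM, although KRT8 (mean 5.17 CPM) and PAX2 (0.819 to 1.81 CPM) were low. Of 9 markers of other cell types, 6 (DCN, PTPRC, PECAM1, CDH5, ALB and APOA1) have no row. The other 3 summed to 17.0 to 17.2 CPM in DMSO, 18.0 in both IXA1 libraries, 14.3 to 17.1 with IXA4, 13.97 to 16.4 with IXA6 and 13.6 to 16.6 with Tg, and their part in the results was not tested. The ER chaperone HSPA5, a target of the UPR, stood at 524 ± 17.9 CPM in DMSO and was higher by 0.65, 0.69 and 0.71 (log2 fold change) with IXA1, IXA4 and IXA6 and by 3.33 with Tg. The same differences for XBP1 were 1.03, 0.84, 0.83 and 1.89, all past the threshold. DDIT3, a target of the PERK branch, differed by 0.28, 0.20 and 0.46 with the IXA compounds and rose by 4.27 with Tg; of the former only the IXA6 difference passed (adjusted p = 0.0353), and not without 5 of the 6 libraries compared (0.0857 to 0.214).

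As a group, translocon and TRAP mRNAs took a larger share of the counts after every compound than in DMSO, with the highest share after Tg. Together the 10 genes took 0.223% to 0.234% of all counts in the DMSO libraries, 0.275% to 0.290% over the libraries of the 3 IXA compounds and 0.381% to 0.392% with Tg. By edgeR's quasi-likelihood test, with Benjamini-Hochberg adjustment over all 13243 genes at 0.05, 5 of the 10 rose with IXA1, 4 with IXA4, 7 with IXA6 and 10 with Tg, and none fell. Over all genes the shares that rose were 1.82% with IXA1, 0.717% with IXA4, 1.51% with IXA6 and 18.8% with Tg; without TMM factors the IXA1 and Tg shares were 1.18% and 13.2%, and 4 and 10 of the 10 genes rose. The median log2 fold change of the 10 genes was 0.24, 0.21, 0.25 and 0.73 in that order, where the medians over all genes were between -0.00767 and 0.000534. Every treated library lay above every DMSO library for 9, 8, 8 and 10 of the genes, while that held for 17.6%, 9.20%, 12.0% and 21.7% of all genes. The count fell to 3 with IXA1 without IXA1 replicate 1 and to 4 with IXA6 without DMSO replicate 1. The 4 comparisons share the DMSO libraries, so they are not independent of each other. In bulk RNA, more transcripts per cell and a change in the mix of cells cannot be told apart.

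**Figure D1:**
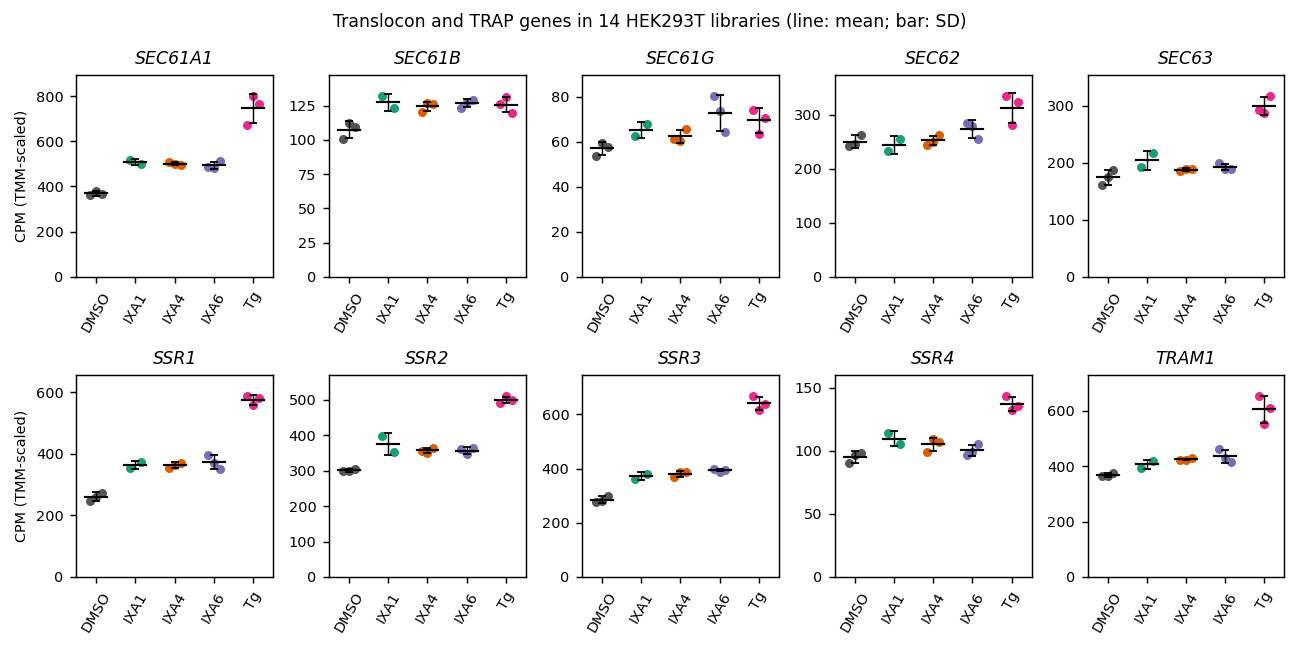
Level of each of the 10 genes in CPM (counts scaled by depth and TMM factor; linear axis from 0) in the 14 libraries, by group. Points are libraries, the long line is the group mean and the bar the SD; the 3 Tg libraries sit above all others for SEC61A1, SEC63, SSR1, SSR2, SSR3, SSR4 and TRAM1, while for SEC61B the means of the treated groups lie between 125 and 128 CPM.

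SEC61A1, the subunit that forms the channel itself, rose with every compound. Its level was 359.8, 381 and 365 CPM in the DMSO libraries, 519 and 497 CPM with IXA1, 508, 497 and 497 CPM with IXA4, 487, 482 and 511 CPM with IXA6 and 673, 799 and 764 CPM with Tg. All IXA libraries were above all DMSO libraries and below all Tg libraries, and the IXA groups overlapped with each other. The log2 fold changes were 0.46 ± 0.06 (SE; adjusted p = 3.42e-05) with IXA1, 0.44 ± 0.05 (adjusted p = 1.88e-05) with IXA4, 0.42 ± 0.05 (adjusted p = 2.83e-05) with IXA6 and 1.02 ± 0.05 (adjusted p = 1.92e-13) with Tg, all by edgeR. In fold terms the channel mRNA was 1.38, 1.36 and 1.34 times its DMSO level with the IXA compounds and 2.02 times with Tg. RUVBL1, which overlaps SEC61A1 by 6899 bases in the RefSeq annotation, did not pass in any of these comparisons, with log2 fold changes of 0.11 with IXA1, 0.02 with IXA4, -0.00 with IXA6 and 0.07 with Tg, except that without Tg replicate 1 the Tg difference passed (adjusted p = 0.0443). Whether counting used strand is not stated, so reads from the overlap, and reads shared with the paralog SEC61A2, cannot be assigned with certainty.

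SEC61B, the small beta subunit at the edge of the channel, rose with IXA1, IXA6 and Tg. The estimates were below those of the channel-forming subunit, but the difference between the genes' changes was not tested. The DMSO libraries held 101, 113 and 109 CPM, IXA1 132 and 123 CPM, IXA4 120.4, 127 and 126 CPM, IXA6 124, 127 and 129.5 CPM and Tg 126, 131 and 120.0 CPM. Every treated library was above every DMSO library, and the Tg libraries overlapped with those of the IXA compounds. The log2 fold change was 0.25 ± 0.06 (SE; edgeR adjusted p = 0.0271) with IXA1, 0.24 ± 0.05 (adjusted p = 0.0178) with IXA6 and 0.23 ± 0.05 (adjusted p = 0.00192) with Tg, and the 0.21 ± 0.05 of IXA4 did not pass (adjusted p = 0.0713). The IXA4 difference passed by DESeq2's Wald test, with only the groups compared and among genes of at least 10 CPM (adjusted p = 0.018, 0.0187 and 0.0457), and without TMM factors the IXA1 difference did not (adjusted p = 0.0569). The IXA1 call was lost without DMSO replicate 1 or 3 or either IXA1 library (adjusted p = 0.135, 0.0531, 0.305 and 0.0912), and the IXA6 call without DMSO replicate 1 or IXA6 replicate 2 or 3 (adjusted p = 0.113, 0.075 and 0.052).

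ALG2, a mannosyltransferase of N-glycan precursor synthesis, starts on the other side of the short gap before SEC61B shown above. Its level went from 44.8, 39.2 and 42.7 CPM in the DMSO libraries to 55.7 and 60.7 CPM with IXA1, 59.1, 62.2 and 64.3 CPM with IXA4, 67.6, 58.4 and 62.1 CPM with IXA6 and 82.3, 73 and 82.5 CPM with Tg. ALG2 thus rose with every compound, with log2 fold changes of 0.46 with IXA1, 0.55 with IXA4, 0.57 with IXA6 and 0.91 with Tg (edgeR adjusted p = 0.00149, 5.04e-05, 2.68e-05 and 3.72e-10). Without IXA1 replicate 2 the IXA1 difference of ALG2 did not pass (adjusted p = 0.0789). The difference between the neighbours' changes was not tested.

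SEC61G, the gamma subunit that clamps the channel from its side, rose with IXA6 and Tg. It stood at 53.9, 59.6 and 57.7 CPM in DMSO, 62.6 and 67.8 CPM with IXA1, 61.1, 60.5 and 65.8 CPM with IXA4, 80.3, 73.8 and 64.5 CPM with IXA6 and 74.3, 63.7 and 70.6 CPM with Tg. All treated libraries lay above the DMSO libraries, and the treated groups overlapped with each other. It rose with IXA6 (log2 fold change 0.35 ± 0.07 SE, edgeR adjusted p = 0.0118) and with Tg (0.29 ± 0.08 SE, adjusted p = 0.00455), while the 0.19 of IXA1 (adjusted p = 0.266) and the 0.13 of IXA4 (adjusted p = 0.651) did not pass. The IXA6 call was lost without DMSO replicate 1, IXA6 replicate 1 or IXA6 replicate 2 (adjusted p = 0.0655, 0.112 and 0.0518).

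SEC62 and SEC63 rose with Tg and passed with none of the IXA compounds. SEC62, a membrane protein that also acts as a receptor for ER turnover, was at 242, 246 and 263 CPM in DMSO, 233 and 255 CPM with IXA1, 245, 249.99 and 263 CPM with IXA4, 286, 279.6 and 254 CPM with IXA6 and 335, 281 and 324 CPM with Tg. The IXA libraries overlapped with DMSO, and the lowest Tg library lay below the highest IXA6 library. Its log2 fold change was 0.32 ± 0.06 (SE; edgeR adjusted p = 1.76e-04) with Tg, against -0.04 with IXA1, 0.01 with IXA4 and 0.13 with IXA6 (adjusted p = 0.854, 0.975 and 0.293). SEC62 is the gene whose window holds the UPRE nearest to a start site among the 13 windows. How the promoter sites relate to the changes in level was not tested.

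SEC63, which carries a J domain that recruits HSPA5 to the channel's lumenal side, moved more with Tg. Its levels were 161, 175 and 188 CPM in DMSO, 193 and 217 CPM with IXA1, 185, 189 and 189.7 CPM with IXA4, 199, 189 and 190.1 CPM with IXA6 and 293, 288 and 317 CPM with Tg. The Tg libraries were above all others, the IXA1 and IXA6 libraries were above DMSO, and the IXA4 libraries overlapped with DMSO. SEC63 rose by 0.78 ± 0.06 (log2, SE; edgeR adjusted p = 8.22e-11) with Tg. With IXA1 the difference of 0.23 ± 0.06 lay just outside the threshold (adjusted p = 0.052), and it passed without DMSO replicate 3 (adjusted p = 0.0259) and in 5 other settings, DESeq2's Wald test among them (adjusted p = 0.0179 to 0.0488).

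The TRAP genes SSR1 and SSR3 had the largest changes of the 10 with Tg, and both rose with all compounds. SSR1, the alpha subunit with a lumenal domain beside the channel, was at 246, 261 and 274 CPM in DMSO, 354 and 373 CPM with IXA1, 352, 364 and 371 CPM with IXA4, 396, 371 and 351 CPM with IXA6 and 586, 557 and 580.2 CPM with Tg. For SSR1 the DMSO, IXA and Tg libraries formed separate ranges, with overlap between the IXA compounds. The log2 fold changes of SSR1 were 0.48 ± 0.06 (SE; edgeR adjusted p = 9.87e-06) with IXA1, 0.48 ± 0.05 (adjusted p = 3.02e-06) with IXA4, 0.52 ± 0.05 (adjusted p = 6.72e-07) with IXA6 and 1.14 ± 0.05 (adjusted p = 8.72e-15) with Tg. SSR1 was the only gene of the 10 that passed with all 4 treatments also when a fold above 1.2 was required.

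SSR3, the gamma subunit with several membrane spans, gave 275, 279 and 301 CPM in DMSO, 361 and 382 CPM with IXA1, 367, 386 and 387 CPM with IXA4, 398, 389 and 396 CPM with IXA6 and 666, 615 and 640.3 CPM with Tg. Again all IXA libraries were between DMSO and Tg, and the IXA6 libraries were above those of the other IXA compounds. Its log2 fold changes were 0.38 ± 0.05 (SE; edgeR adjusted p = 1.01e-04) with IXA1, 0.42 ± 0.05 (adjusted p = 7.04e-06) with IXA4, 0.47 ± 0.05 (adjusted p = 9.47e-07) with IXA6 and 1.17 ± 0.05 (adjusted p = 1.22e-15) with Tg. In fold terms SSR3 was 2.25 times and SSR1 2.21 times its DMSO level with Tg.

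SSR2, the beta subunit, also rose with every compound, at lower estimates than SSR1 and SSR3, though the difference between the genes' changes was not tested. It was at 299.7, 298 and 304 CPM in DMSO, 398 and 354 CPM with IXA1, 356, 350.2 and 365 CPM with IXA4, 359.8, 347 and 364 CPM with IXA6 and 492, 509 and 499 CPM with Tg. The DMSO values were close together, and all treated libraries lay above them, with Tg above all IXA libraries. The log2 fold changes of SSR2 were 0.32 ± 0.05 (SE; edgeR adjusted p = 6.26e-04) with IXA1, 0.25 ± 0.05 (adjusted p = 0.00395) with IXA4, 0.25 ± 0.05 (adjusted p = 0.00357) with IXA6 and 0.73 ± 0.05 (adjusted p = 6.07e-12) with Tg. Without IXA1 replicate 1, the higher of the IXA1 pair, the IXA1 difference did not pass (adjusted p = 0.0775).

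SSR4, the delta subunit, rose with Tg. Its level was 90.2, 96.6 and 98.6 CPM in DMSO, 114 and 106 CPM with IXA1, 99.3, 109 and 107 CPM with IXA4, 96.7, 99.4 and 105 CPM with IXA6 and 143, 133 and 135 CPM with Tg. The Tg libraries were above all others, and the IXA6 libraries overlapped with DMSO. It rose by 0.53 ± 0.06 (log2, SE; edgeR adjusted p = 7.85e-08) with Tg; the differences with IXA1, IXA4 and IXA6 were 0.21, 0.15 and 0.08 (adjusted p = 0.0921, 0.386 and 0.501). The IXA1 difference of SSR4 passed by DESeq2's Wald test (adjusted p = 0.0406) and in an edgeR fit of only the groups compared (adjusted p = 0.0363). IDH3G, which overlaps SSR4 by 217 bases, was not called, at 0.03, -0.06, -0.13 and -0.15 in the same order; without Tg replicate 2 its Tg difference passed as lower (adjusted p = 0.0267). Reads from this overlap cannot be told apart for the same reason as at SEC61A1.

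TRAM1, which sits next to the channel and contacts signal sequences, was at 363, 365 and 376 CPM in DMSO, 395 and 419 CPM with IXA1, 424, 424 and 428 CPM with IXA4, 461, 429 and 416 CPM with IXA6 and 652, 554 and 609.6 CPM with Tg. Every treated library was above every DMSO library, and the Tg libraries were above all others. TRAM1 rose with IXA6 (log2 fold change 0.24 ± 0.05 SE, edgeR adjusted p = 0.0153) and with Tg (0.72 ± 0.05 SE, adjusted p = 1.47e-10). With IXA4 the difference was 0.21 (adjusted p = 0.075) and with IXA1 0.14 (adjusted p = 0.231). The IXA4 difference passed by DESeq2's Wald test, with only the groups compared and without TMM factors (adjusted p = 0.012, 0.00187 and 0.0406). The IXA6 call was lost without DMSO replicate 1, DMSO replicate 2 or IXA6 replicate 1 (adjusted p = 0.0596, 0.0813 and 0.118).

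**Figure D2:**
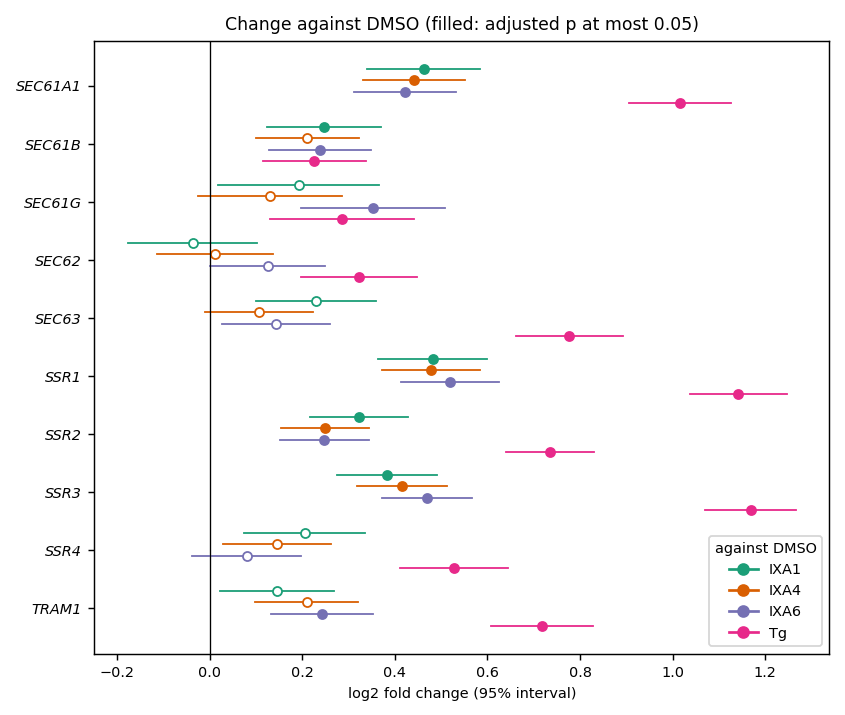
Log2 fold change of each gene against DMSO with its 95% interval (edgeR), 1 symbol per compound; filled symbols passed the adjusted p of 0.05. SSR1, SSR3 and SEC61A1 lie farthest to the right for Tg, at 1.14, 1.17 and 1.02, and SEC61B lies at 0.21 to 0.25 for all compounds.

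Ordering the groups by mean level showed where neighbouring groups differed. For SEC61A1, SSR1, SSR2 and SSR3 the steps from DMSO to the lowest IXA group and from the highest IXA group to Tg passed, and no step between IXA groups did. For SEC62, SEC63, SSR4 and TRAM1 the step up to Tg was the only one that passed. For SEC61B and SEC61G no step between neighbours passed. Neighbours were set by these same means, so a rise over several steps can pass where no single step does. TRAM1 with IXA6, SEC61B with IXA1, IXA6 and Tg, and SEC61G with IXA6 and Tg passed against DMSO, as given above. The order for SEC61B was DMSO, IXA4, Tg, IXA6 and IXA1, with means from 108 ± 6.26 CPM (SD, n = 3) in DMSO to 128 ± 6.17 CPM (SD, n = 2) with IXA1. SEC61G ran from 57.1 ± 2.92 CPM (SD, n = 3) in DMSO through IXA4, IXA1 and Tg to 72.9 ± 7.93 CPM (SD, n = 3) with IXA6.

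The IXA compounds were then compared with each other, at 1 time and unknown doses. By edgeR, 0 of the 10 genes passed between IXA1 and IXA4, 0 between IXA1 and IXA6 and 0 between IXA4 and IXA6, and DESeq2 also called 0 in each. Over all genes 2.58%, 7.35% and 0% passed in these comparisons. At an unadjusted p under 0.05 the counts of the 10 genes were 0, 1 and 1. The largest difference was that of SEC61G, at -0.22 on the log2 scale for IXA4 less IXA6 (95% interval -0.38 to -0.07, unadjusted p = 0.00656, edgeR adjusted p = 0.366), with overlapping libraries. SEC62 followed, at -0.16 for IXA1 less IXA6 (interval -0.30 to -0.02, adjusted p = 0.144). For SSR1 the differences between compounds were 0.00 (interval -0.11 to 0.12) for IXA1 less IXA4 and -0.04 (interval -0.14 to 0.06) for IXA4 less IXA6. SEC61A1 differed by 0.02 (interval -0.10 to 0.14) and 0.02 (interval -0.09 to 0.13) in the same comparisons. These intervals also hold differences other than 0, so the compounds are not shown to act alike. The numbers of genes that passed against DMSO (5, 4 and 7) therefore do not show a difference between the compounds.

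Against Tg, 8 of the 10 genes were lower with each IXA compound, where 17.9% of all genes were lower with IXA1, 18.4% with IXA4 and 16.8% with IXA6; without TMM factors these shares were 14.3%, 12.7% and 11.3%, and SEC62 was then not called with IXA6 (adjusted p = 0.0952). SSR3 differed from its Tg level by -0.79, -0.75 and -0.70 (log2) with IXA1, IXA4 and IXA6, SSR1 by -0.66, -0.66 and -0.62, and SEC63 by -0.55, -0.67 and -0.63. Of the 8, SEC62 differed least, at -0.20 with IXA6 (edgeR adjusted p = 0.015); the call was lost without IXA6 replicate 3, Tg replicate 1 or Tg replicate 3 (adjusted p = 0.0997, 0.0768 and 0.0686). SEC61B did not pass, with differences from Tg of 0.02 (95% interval -0.10 to 0.14), -0.02 (-0.13 to 0.10) and 0.01 (-0.10 to 0.12). SEC61G did not pass either, at -0.09 (-0.27 to 0.08), -0.16 (-0.31 to -0.00) and 0.07 (-0.09 to 0.22). Without Tg replicate 2, SEC61G was lower with IXA4 than with Tg (adjusted p = 0.0327).

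**Figure D3:**
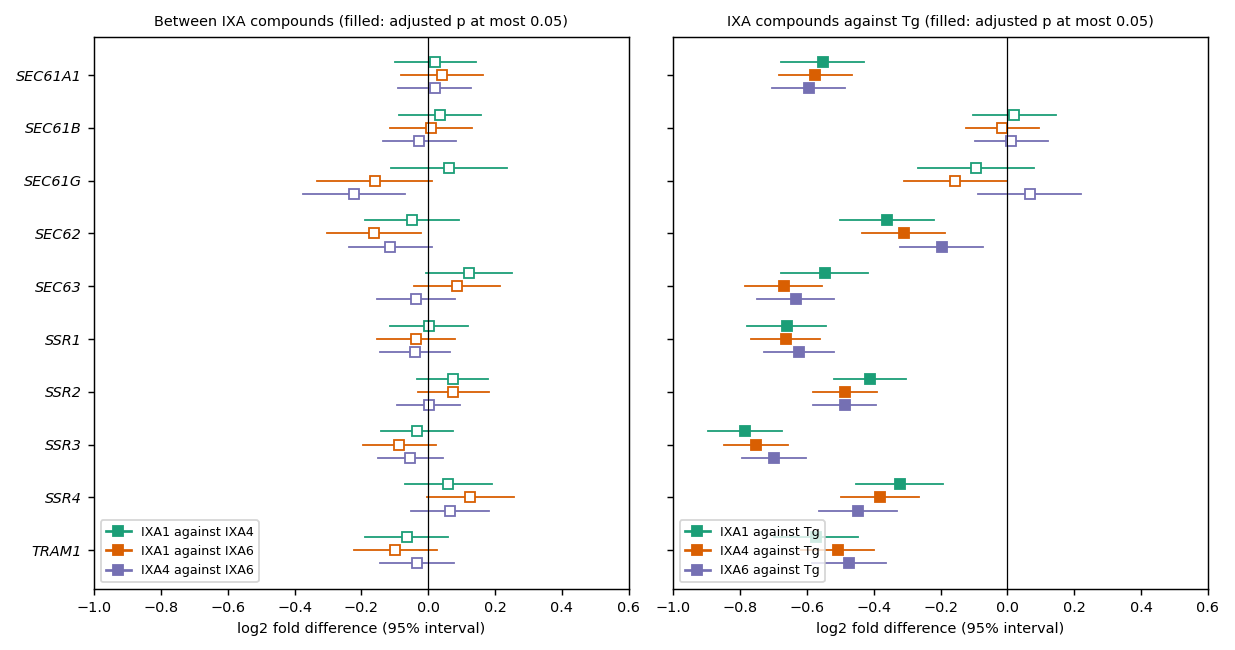
Log2 difference of each gene between compounds with its 95% interval (edgeR); left, pairs of IXA compounds, right, each IXA compound against Tg. No symbol is filled on the left, and on the right all are filled (adjusted p at most 0.05) except those of SEC61B and SEC61G.

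The balance of mRNAs within each complex was followed as the log2 ratio of a subunit's count to the geometric mean of the other subunits' counts in the same library, which does not depend on library scaling. Exact two-sided permutation tests of these ratios cannot go below p = 0.1 with 3 against 3 libraries or 0.2 with 2 against 3. The ratios are therefore a description. Within a complex they are tied by construction, so a higher ratio of a subunit comes with lower ratios among the others. A lower ratio is thus not a separate result. Nor is it a lower level: SEC61B and SEC61G both rose with Tg (log2 fold change 0.23 and 0.29). With Tg the ratio of SEC61A1 to the small subunits was higher than in DMSO by 0.76, and those of SEC61B and SEC61G were lower, at differences of -0.42 and -0.34, each time with no overlap. With the IXA compounds the SEC61A1 ratio was above DMSO in all libraries, by 0.24 with IXA1, 0.27 with IXA4 and 0.13 with IXA6, the last of which was 0.067 without IXA6 replicate 3. The lowest IXA6 ratio, 2.291, was close to the highest DMSO ratio, 2.289. The SEC61G ratio was below DMSO with IXA1 and IXA4 (-0.16 and -0.20) and overlapped with it under IXA6. That of SEC61B overlapped with DMSO with IXA1 and IXA4 (-0.08 and -0.07) and was below it with IXA6 (-0.15, or -0.094 without IXA6 replicate 1).

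Within TRAP, the SSR1 ratio was higher and the SSR4 ratio lower than in DMSO with every compound. These ratios are tied to each other in the same way. The SSR1 ratio was above all DMSO libraries by 0.18 with IXA1, 0.21 with IXA4, 0.25 with IXA6 and 0.33 with Tg, and the SSR4 ratio was below them, at differences of -0.19, -0.24, -0.33 and -0.49. SSR3 was above DMSO with IXA4 (0.13), IXA6 (0.19) and Tg (0.37) and overlapped with it with IXA1 (0.05). SSR2 was below DMSO with IXA6 (-0.11) and Tg (-0.21) and overlapped otherwise. The ratio of SEC62 to SEC63 was lower with IXA1 (-0.27), IXA4 (-0.10, or -0.065 without DMSO replicate 1) and Tg (-0.46) and overlapped with DMSO with IXA6. The IXA1 ratios rest on 2 libraries, and leaving out either moved the SSR1 ratio to 0.11 or 0.25, the SSR4 ratio to -0.14 or -0.24, the SEC61G ratio to -0.066 or -0.26, the SEC61B ratio to -0.14 or -0.017 and the SSR3 ratio to 0.12 or -0.027.

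**Figure D4:**
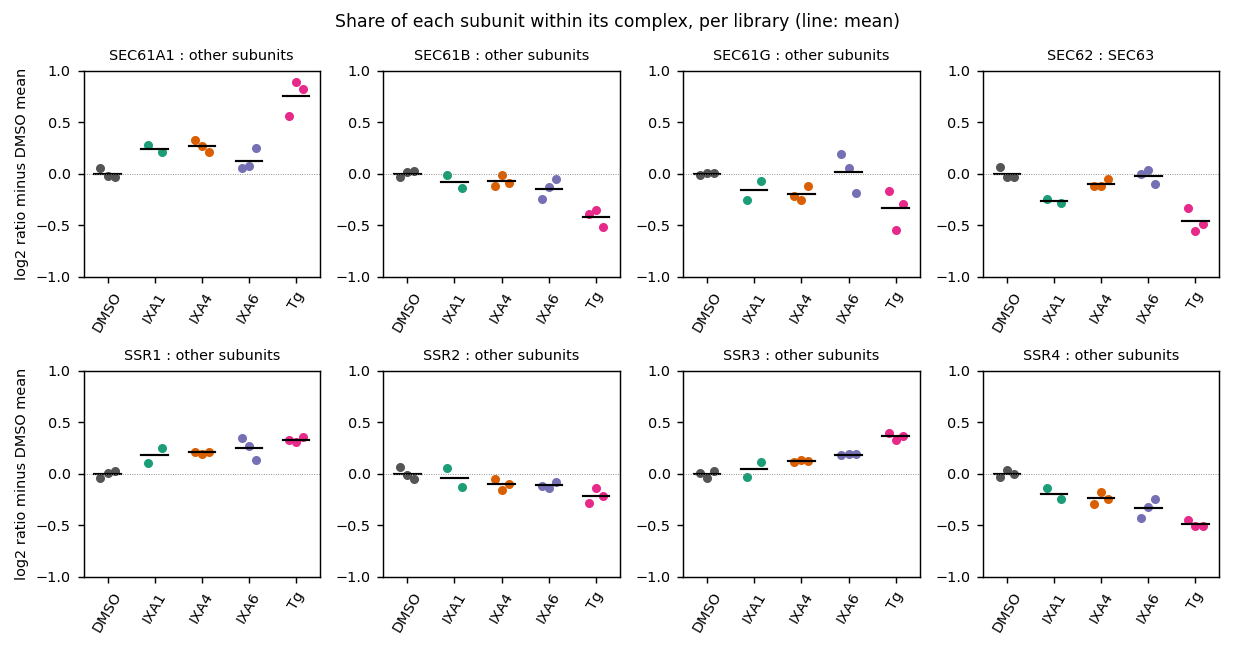
Log2 ratio of each subunit to the other subunits of its complex per library, as a difference from the DMSO mean; points are libraries and lines group means. SEC61A1, SSR1 and SSR3 lie above 0 for Tg (0.76, 0.33 and 0.37) and the other subunits below. By construction the ratios of a complex cannot all rise together.

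Over the 14 libraries, the log2 CPM of each gene was correlated with the mean of the other 9 (Pearson r, a description, since the libraries share treatments). SSR1 and SSR3 followed the others most closely (r = 0.993 and 0.987), then TRAM1 (0.957), SSR2 (0.949), SEC61A1 (0.940), SEC63 (0.922) and SSR4 (0.893), with SEC62 at 0.782, SEC61G at 0.609 and SEC61B at 0.553. In some groups the genes also split by library. SEC61G, SEC62, SEC63, SSR1, SSR3 and TRAM1 were all highest in IXA1 replicate 2 and in IXA6 replicate 1 of their groups, where SEC61A1, SEC61B, SSR2 and SSR4 were highest in IXA1 replicate 1 and in IXA6 replicate 3. With only 2 IXA1 libraries, each gene has to be highest in 1 of them. These sets did not hold in DMSO or with IXA4. In both, SSR2 was highest in replicate 3, as were SEC62, SEC63, SSR1, SSR3 and TRAM1. With Tg, replicate 2 was highest for SEC61A1, SEC61B and SSR2 and lowest for the other 7. DMSO replicate 1 was the lowest DMSO library for 9 of the 10 genes. What these library differences come from was not tested.

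Among 9647 other genes with a mean of at least 10 CPM, the 6 whose log2 CPM most resembled the mean standardized profile of the 10 genes over the 14 libraries were USO1 (Pearson r = 0.990), DNAJB9 (0.987), BET1 (0.982), TMED10 (0.982), TMEM39A (0.981) and OSTC (0.979). USO1, BET1 and TMED10 act in transport between ER and Golgi, DNAJB9 is an ER co-chaperone and OSTC a subunit of the oligosaccharyltransferase. USO1 differed from DMSO by 0.26, 0.22, 0.26 and 0.61 (log2) with IXA1, IXA4, IXA6 and Tg. DNAJB9 differed by 1.16, 1.24, 1.29 and 2.74, BET1 by 0.41, 0.42, 0.48 and 1.05, and TMED10 by 0.37, 0.32, 0.33 and 0.85. TMEM39A differed by 0.42, 0.41, 0.57 and 1.28. USO1 did not pass with IXA1 without IXA1 replicate 2 (adjusted p = 0.179) or with IXA4 without 3 of the libraries (0.0583 to 0.0810), nor BET1 with IXA1 without either IXA1 library (0.0563 and 0.0789).

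The rest of the translocation pathway was followed in 65 genes of 9 lists, all of them in the table. With IXA1, 8 were higher and 1 lower than in DMSO, with IXA4 8 and 0, with IXA6 12 and 2 and with Tg 29 and 5, at medians of 0.10, 0.04, 0.06 and 0.11. Without TMM factors the Tg calls were 29 higher and 11 lower, and with DESeq2's size factors the IXA1 calls were 8 and 0. Calls in either direction fell to 4 with IXA1 without IXA1 replicate 2, to 5 with IXA4 without DMSO replicate 2, IXA4 replicate 2 or IXA4 replicate 3, and to 7 or 8 with IXA6 without DMSO replicate 1 or 2 or IXA6 replicate 1 or 2. Over all genes the shares called higher were 1.82%, 0.717%, 1.51% and 18.8% with IXA1, IXA4, IXA6 and Tg. The shares called lower were 0.491%, 0.0831%, 0.778% and 17.0%, and without TMM factors they were 0.838% with IXA1 and 25.6% with Tg. The 8 genes of the signal recognition particle and its receptor, which bring ribosomes to the channel, held 2, 2, 3 and 6 higher genes in that order. SRP19, which folds the particle's RNA, rose by 0.30, 0.38, 0.47 and 0.92, and SRPRB, the membrane anchor of the receptor, by 0.21, 0.21, 0.25 and 0.85. SRP54, the signal-sequence binding subunit, rose with IXA6 (0.25) and with Tg (0.49), and SRPRA, the receptor's other subunit, with Tg (0.59).

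Enzymes that act on chains as they emerge from the channel came next. Over all genes 1.82%, 0.717%, 1.51% and 18.8% were called higher with IXA1, IXA4, IXA6 and Tg. Of 5 signal peptidase genes, 0 rose with IXA1 and IXA4, 1 with IXA6 (SPCS3, 0.22) and 3 with Tg (SEC11C 0.62, SPCS3 0.55 and SPCS2 0.39). Of 12 oligosaccharyltransferase genes, 1 rose with IXA1, 2 with IXA4, 2 with IXA6 and 6 with Tg. STT3A, the catalytic subunit that works at the translocon, rose by 0.34, 0.20, 0.27 and 0.64 with IXA1, IXA4, IXA6 and Tg. OSTC, which links that enzyme to the channel, rose with IXA4 (0.28), IXA6 (0.31) and Tg (0.84), and MAGT1, a subunit of the other form of the enzyme, with Tg (0.77). Of 8 lumenal chaperones of translocation, 4, 4, 6 and 7 rose. HYOU1, a nucleotide exchange factor for HSPA5, changed by 0.42, 0.39, 0.38 and 2.45, and the co-chaperone DNAJC3 by 0.30, 0.51, 0.45 and 1.97. Of 3 ribosome-binding ER proteins, 1 rose with IXA1 (CKAP4, 0.21) and 2 with Tg (CKAP4 0.50 and RRBP1 0.42).

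The remaining lists cover other routes of membrane insertion and paralogs of the translocon genes. With the IXA compounds none of the 10 genes of the ER membrane complex passed; with Tg, EMC9 (0.53), EMC2 (0.33) and MMGT1 (0.29) rose and EMC10 (-0.15) fell. Of 9 multipass translocon genes, NCLN was lower with IXA6 (-0.25) and Tg (-0.31), and CCDC47 was higher with Tg (0.30). Of 7 genes for tail-anchored protein insertion, UBL4A was lower with IXA1 (-0.23), IXA6 (-0.22) and Tg (-0.36), GET3 (ASNA1 in the table) was lower with Tg (-0.16) and CAMLG higher with Tg (0.36). Of the 3 paralogs SEC61A2, TRAM1L1 and TRAM2, only TRAM2 passed, lower with Tg (-0.25). With Tg 18.8% of all genes were called higher and 17.0% lower, so a few Tg calls in a list are not a trait of these lists. Leaving out any of 5 libraries of those compared ended the calls of UBL4A with IXA1 (adjusted p = 0.0763 to 0.433) and IXA6 (0.0784 to 0.169), SRPRB, STT3A and OSTC with IXA4 (0.0518 to 0.259) and SPCS3 with IXA6 (0.0833 to 0.187). Calls of SRP19, SRPRB, CKAP4 and DNAJC3 with IXA1 and of SRP54, OSTC and NCLN with IXA6 ended without 1 to 5 of the libraries (adjusted p = 0.0543 to 0.261), and with Tg those of ASNA1 and TRAM2 (0.0762 to 0.128). How far these lists differ from the translocon genes was not tested.

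**Figure D5:**
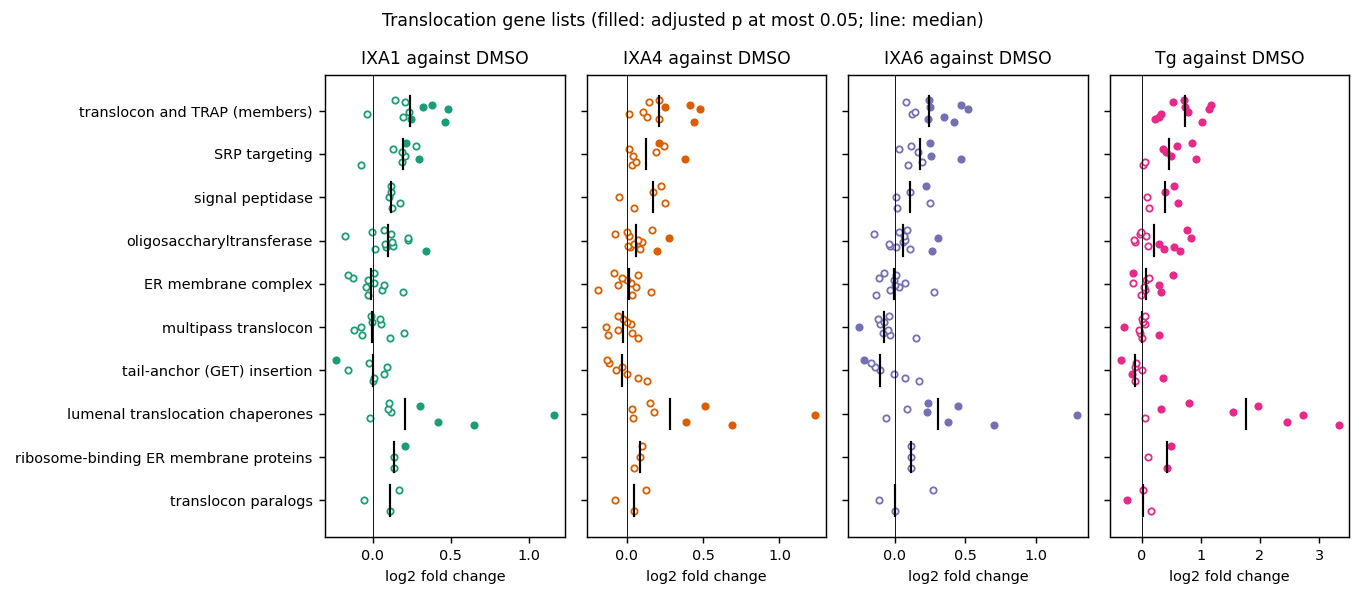
Log2 fold change against DMSO (horizontal axis, its range set per panel) of the genes of each translocation list, 1 panel per treatment; each point is a gene, filled points passed the adjusted p of 0.05 and the vertical line is the list's median. The translocon and TRAP genes have a median of 0.73 with Tg, and all of their points there are filled.

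In the authors' deposited tables of fold changes, whose reference group is not named in the headers, 8 of the 10 genes have an adjusted p of at most 0.05 for IXA1, 6 for IXA4, 7 for IXA6 and 10 for Tg. Of those, the authors' deposited table for IXA1 lists SEC63 (adjusted p = 0.00382), SSR4 (0.0265) and TRAM1 (0.00260), and that for IXA4 lists SEC61B (0.00924) and TRAM1 (9.39e-07), which did not pass here by edgeR. By DESeq2's Wald test on the counts used here, all of these but TRAM1 with IXA1 passed. Log2 fold changes are positive there for 9 of the 10 genes with IXA1 and for all 10 with the other compounds, in the authors' deposited tables. For IXA4 the deposited values were close to those here (TRAM1 0.210 against 0.209, SEC61B 0.212 against 0.211). For IXA1 some lay farther off (TRAM1 0.175 against 0.145, SEC61B 0.210 against 0.247) and others did not (SSR1 0.480 against 0.481). Whether the deposited IXA1 table rests on the same libraries as the fit here was not tested.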

How the data were processed

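RNA-seq counts per gene symbol were deposited by the authors as whole numbers for the whole series. The build was GRCh37.p13, per the submitters' processing notes; aligner, counting tool and strand setting were not given in the sources used here. Besides, the authors deposited log2 fold changes and adjusted p-values per compound, per the submitters' processing notes from DESeq, which are quoted only as theirs. Of the sample columns, 1, whose header names a compound of no sample title, was not used, so IXA1 has 2 libraries; whether it holds the remaining IXA1 sample cannot be told from the labels. Of the 13243 genes, 22 bear a date in place of a name; they stayed in the fit. The lowest summed count of a gene over the 14 libraries was 73.

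Counts (14160321 to 15726742 per library) were fitted with edgeR 4.0.16 (R 4.3.3), using TMM scaling, the default expression filter, which removed 0 genes, and the quasi-likelihood test in 1 fit of all groups without covariates. P-values were adjusted by Benjamini-Hochberg over all genes within each of 10 comparisons at 0.05. Levels in CPM divide each count by library size times TMM factor; standard errors are the log2 fold change over the square root of F, and 95% intervals use the fit's degrees of freedom and cover the spread between libraries only. Alternatives were DESeq2 1.42.0 (test and size factors), no TMM, other filters, a minimum fold of 1.2, fits of the compared groups alone, a replicate block and leaving out each library.

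The members and lists were chosen with earlier results of these data known. Named genes are the members, up to 3 called genes per list and comparison, 4 UPR genes and the 6 genes most alike the members; neighbouring genes, EMC10 and genes behind small counts were named after their values were seen. Older symbols were matched for 3 list genes. Promoter sequences are RefSeq's for GRCh38.p14, another build than that of the counts, so they and the gene overlaps describe the annotation only, and no coordinates of counted features are given. No pseudogene of the 6 that RefSeq lists for the members is in the table.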

Additional observations from a re-analysis of the deposited data

How the results depend on the processing

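No value that passed the threshold changed sign in any setting. The 10 Tg calls and the 0 calls between IXA compounds were the same count with DESeq2's test or size factors, no TMM factor, other filters, fits of the compared groups alone and each library left out. Requiring a fold above 1.2 left 1 of the 10 genes with IXA1, 1 with IXA4, 2 with IXA6 and 7 with Tg, and 2, 3, 2 and 21 of the other 65 translocation genes with IXA1, IXA4, IXA6 and Tg; such a test asks for a larger change by construction. Fitting only the groups compared gave 15 of the 65 with IXA1, and the cause was not tested. Leaving out 1 library gave 3 to 5 of the 10 genes with IXA1, 4 with IXA4, 4 to 7 with IXA6 and 10 with Tg, and 4 to 7, 5 to 7, 7 to 14 and 32 to 38 of the 65. DESeq2 called 7, 6, 7 and 10 of the 10 genes. For IXA1, leaving out 1 library moved the subunit ratios to between -0.14 and -0.017 for SEC61B, -0.26 and -0.066 for SEC61G, 0.11 and 0.25 for SSR1, -0.13 and 0.057 for SSR2, -0.027 and 0.12 for SSR3 and -0.24 and -0.14 for SSR4. Omitting the TMM factor moved the median of all genes to -0.08 with Tg. With 2 or 3 libraries a group, small differences may have gone undetected, and a 95% interval that holds 0 does not show that there was none. Some differences whose interval excludes 0 did not pass after adjustment, such as SEC63 with IXA1 (0.10 to 0.36, edgeR adjusted p = 0.052). Counting error weighs more on genes of low count, such as DDIT3, than on the 10 genes.

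The labels give every group replicate numbers. Deviations of same-numbered libraries from their group means correlated at -0.148 to 0.112 (median -0.0206), over 0.1 in 1 of 26 pairs, and 6 of 14 libraries correlated best with their own number, so the numbers were not taken to pair the samples. A fit with the number as a replicate block called 6, 4, 7 and 10 of the 10 genes with IXA1, IXA4, IXA6 and Tg and 9, 7, 12 and 34 of the 65.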
